A study of Rattus norvegicus with 3 samples.

Results

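The genes described are components and regulators of complement: the C1 proteases C1r and C1s, the central component C3, the activation proteases C2, Cfb and Cfd, the inhibitors Serping1 and Cd55, and the receptor C5ar1. They were chosen by name, as probe sets annotated to one of these symbols alone. Of the 9 genes, 7 had such a probe set, among 14218 genes measured that way. Of those 7, 6 had a value that differed between arrays. C2 and Cfb, which lie next to each other on chromosome 20, had only probe sets annotated to both genes and are described together.

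RNA came from cardiomyocytes of fetal Wistar rats, an outbred strain, plated for 48 hours and then exposed for 24 hours to 1 of 3 media. These were fresh medium as control, medium conditioned by skeletal myoblasts, and medium conditioned by cardiac fibroblasts, in a study of paracrine protection from oxidative stress. Each medium was measured on 1 array, so no difference below has a replicate, an error or a test. The labels do not say how many animals or dishes a culture held, nor the age of the fetuses in days.

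Complement is a cascade of serum proteins that the liver makes in bulk and that macrophages, fibroblasts and endothelial cells also produce locally. C1q bound to a surface activates C1r, which activates C1s, and C1s cleaves C4 and C2 to form an enzyme that splits C3. The alternative pathway reaches the same step through factor B and factor D and amplifies it. Fragments of C3 mark a surface for uptake by phagocytes, and C5a, released further down the cascade, attracts leukocytes through the receptor encoded by C5ar1.

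The deposited values were read as log2 values set to 0 at the median array of each probe set, with blank cells as 0, so that 1 unit is 2-fold. No header states this; the scale was inferred because RMA yields log2 values, and the centring from the pattern of blanks and signs, and every fold below rests on that reading. On that reading a value of 0 marks the middle of the 3 arrays and not an absence of RNA, and levels of different genes could not be compared. Of 31099 probe sets, 17117 had 2 values, the pattern that 1 blank median array gives. Another 8002 had 1 value and 5980 had none. Why their further cells are blank is unknown, so a 0 there may not be a middle value. In bulk RNA, fewer cells of a type and less RNA per cell cannot be told apart. The cardiomyocyte label was checked on 13 marker genes. Their signal over background is unknown, so presence could not be judged, and their median difference from fresh medium was -0.16 in myoblast and -0.73 in fibroblast medium.

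C3 and C5ar1 were highest in fibroblast medium and lowest in myoblast medium, with fresh medium between. C1r and Cfd had the same order over smaller ranges. Serping1, which encodes the C1 inhibitor, was highest in fresh medium and nearly equal in both conditioned media. C1s differed little between fresh and fibroblast medium, and Cd55 had no value on any array.

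**Figure D1:**
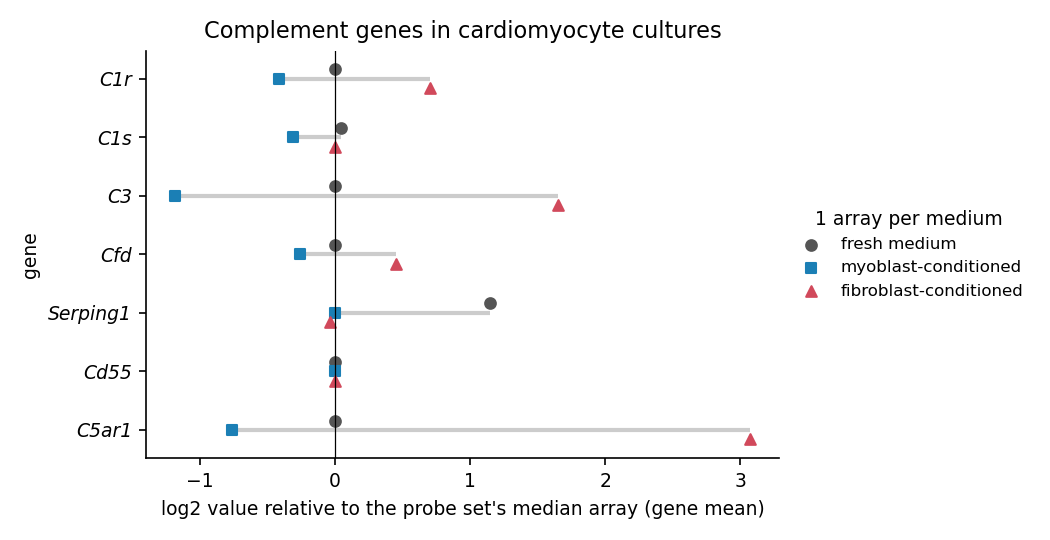
Log2 value on each of the 3 arrays, relative to the probe set's median array, for the 7 complement genes with probe sets of their own; circles are fresh medium, squares myoblast-conditioned and triangles fibroblast-conditioned medium, and grey bars span the 3 values. C5ar1 spans the widest range, from -0.76 to 3.07, and Serping1 alone stands highest in fresh medium by more than 2-fold.

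C1r, the protease that starts the classical pathway, was at 0 in fresh medium, -0.42 in myoblast medium and 0.70 in fibroblast medium. Fibroblast medium was thus above fresh medium by 0.70 (1.62-fold), and above myoblast medium by 1.12 (2.17-fold). Control transcripts are meant to be added to each sample in like amounts. Over their 42 probe sets, differences between the conditioned media ran from -1.02 to 0.48. The 1.12 of C1r lies only a little beyond the largest size, 1.02, which was in the other direction. C1s, the partner protease, was at 0.05 in fresh, -0.31 in myoblast and 0.00 in fibroblast medium. C1r and C1s are next to each other on chromosome 4, and myoblast medium was the lowest array for both. In fibroblast medium C1r was higher than in fresh medium, and C1s differed from fresh medium by -0.05.

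C3, the component on which all activation routes converge, was at 0 in fresh, -1.18 in myoblast and 1.65 in fibroblast medium. Myoblast medium was below fresh medium by 2.27-fold and fibroblast medium was above it by 3.13-fold. Between the conditioned media C3 differed by 2.83 (7.12-fold), and 0.478% of all genes had a larger difference in that direction.

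Cfd encodes factor D, also known as adipsin, the protease that cleaves factor B. It was at 0 in fresh, -0.26 in myoblast and 0.45 in fibroblast medium. The difference of 0.71 between the conditioned media is smaller in size than the largest among the added control transcripts, which ran from -1.02 to 0.48. The 9 measured adipocyte markers went both ways, with 3 above and 3 below fresh medium in myoblast medium, 2 above and 3 below in fibroblast medium, and medians of 0.00. Fabp4 differed from fresh medium by -1.83 and -1.36 in myoblast and fibroblast medium, Cd36 by -0.52 and -1.12, Lpl by 0.37 and -0.34, and Cebpa by 0.21 and 0.60. Adipoq, the adiponectin gene, differed by -0.05 and 0.00. The part of such cells in the Cfd values was not tested.

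The sequence before the gene start is shown for C1r, C3 and Cfd, which shared the order of the 3 arrays and have an entry in the RefSeq promoter table of assembly GRCr8. Each run holds the 250 bases before the start, 5′ to 3′ on the gene's strand, with matches to searched motifs in capitals.
C1r, chr4:159098763-159099012, plus strand: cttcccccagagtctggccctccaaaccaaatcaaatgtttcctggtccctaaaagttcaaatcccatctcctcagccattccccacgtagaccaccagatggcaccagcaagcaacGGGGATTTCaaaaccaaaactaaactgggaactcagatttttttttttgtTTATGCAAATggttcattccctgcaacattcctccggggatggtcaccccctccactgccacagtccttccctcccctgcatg
C3, chr9:2201340-2201589, minus strand: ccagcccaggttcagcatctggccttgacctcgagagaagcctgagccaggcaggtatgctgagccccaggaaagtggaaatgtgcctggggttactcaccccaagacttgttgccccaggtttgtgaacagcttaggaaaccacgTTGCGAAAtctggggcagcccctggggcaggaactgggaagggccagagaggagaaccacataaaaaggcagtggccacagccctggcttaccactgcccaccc
Cfd, chr7:10465497-10465746, minus strand: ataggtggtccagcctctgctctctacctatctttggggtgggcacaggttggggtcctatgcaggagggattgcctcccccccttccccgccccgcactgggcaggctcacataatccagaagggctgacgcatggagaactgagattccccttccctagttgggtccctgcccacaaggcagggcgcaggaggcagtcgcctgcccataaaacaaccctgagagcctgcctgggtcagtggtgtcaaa

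Motifs of factors known in inflammatory and interferon control, and the octamer ATGCAAAT, were searched on both strands, after the sequences had been read. C1r and C3 each held 1 match to TTGCNNAA, a form of the C/EBP site, which 9.22% of 33469 promoter windows of this length held. In C1r the match covers bases -83 to -76 from the start, on the minus strand, and overlaps a match to the octamer ATGCAAAT (1.56% of windows). In C3 it covers bases -104 to -97. C1r also held GGGNNTTTC, a partial NF-kB site found in 3.70% of windows, at bases -133 to -125. Neither TTCNNNGAA, the STAT site (7.67% of windows), nor GAAANNGAA, the core of the interferon-response element (8.12%), was found in these windows, and the Cfd window held none of the motifs. A match of letters is a description and not a binding site.

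For C2 and Cfb, which encode the homologous proteases of the classical and the alternative C3-cleaving enzymes, 4 probe sets were annotated to both genes. Their differences from fresh medium ran from -0.10 to 0.00 in myoblast medium and from -0.13 to -0.01 in fibroblast medium. Between the conditioned media they ran from -0.13 to 0.08. All of these are small beside the differences of C3, and they cannot be assigned to either gene. The 4 probe sets held 6 values between them, and the -0.13 came from a probe set with 1 value. These small differences therefore rest partly on blanks read as 0.

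Serping1, which encodes the serpin that inactivates C1r and C1s, was at 1.15 in fresh, 0.00 in myoblast and -0.04 in fibroblast medium. It was below fresh medium by 2.21-fold in myoblast and by 2.28-fold in fibroblast medium, and the conditioned media differed from each other by 0.04 in size. Both differences use the same fresh-medium array, so they are not independent. Several interferon-response genes had the same order of fresh against conditioned medium. Irf7, an interferon regulatory factor, differed from fresh medium by -1.92 in myoblast and -1.56 in fibroblast medium, Mx2 by -1.80 and -1.52, and Rtp4 by -1.39 and -1.67. The immunoproteasome gene Psmb9 had another order, at -0.67 and 1.03. Over the 17 measured genes of that list, 5 were at least 2-fold lower and 0 higher in myoblast medium, and 7 were lower and 2 higher in fibroblast medium, with medians of -0.29 and -0.14. Among all genes the shares at least 2-fold lower were 0.844% and 2.6%, and those at least 2-fold higher 1.35% and 4.26%. Whether they bear on Serping1 was not tested.

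Cd55 encodes decay-accelerating factor, which takes apart the C3-cleaving enzymes on the cell's own surface. Both of its probe sets were blank on all arrays, so its 0.00 in each comparison comes from reading blanks as 0.

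C5ar1 encodes the C5a receptor of neutrophils and macrophages. It was at 0 in fresh, -0.76 in myoblast and 3.07 in fibroblast medium. Fibroblast medium was 8.42-fold above fresh medium, and 0.331% of all genes had a larger value in that comparison. Against myoblast medium the difference was 3.84 (14.3-fold), the widest among the 7 genes.

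In myoblast against fresh medium, none of the 7 genes was at least 2-fold higher, beside 1.35% of all genes. C3 and Serping1, 2 of 7, were at least 2-fold lower, beside 0.844% of all genes. The remaining values were -0.76 for C5ar1, -0.42 for C1r, -0.36 for C1s, -0.26 for Cfd and 0.00 for Cd55. The median of the 7 was -0.42, and that of all genes 0.00. Differences of the added control transcripts in this comparison ran from -0.01 to 0.66, with a median of 0.29.

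In fibroblast against fresh medium, C3 and C5ar1, 2 of 7, were at least 2-fold higher, beside 4.26% of all genes. Serping1, 1 of 7, was at least 2-fold lower, beside 2.6%. The median was 0.45 against 0.00 for all genes, and the controls ran from -0.68 to 0.59. C1r, at 0.70, was just beyond the larger size, and Cfd lay inside the range.

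In fibroblast against myoblast medium, C3, C5ar1 and C1r, 3 of 7, were at least 2-fold higher, beside 3.94% of all genes. None was at least 2-fold lower, beside 2.12%. The median was 0.71, again with 0.00 for all genes. With so few genes, these shares describe the set on these arrays only.

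**Figure D2:**
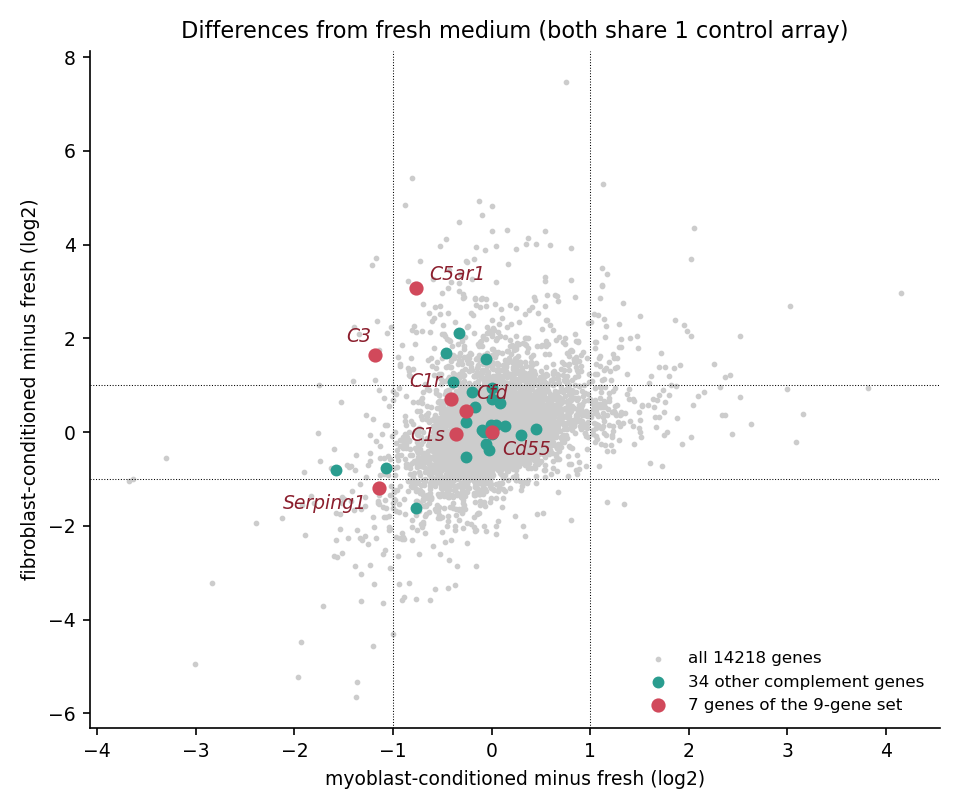
Difference from fresh medium in myoblast-conditioned (horizontal) and fibroblast-conditioned medium (vertical), both log2, for 14218 genes in grey, 34 other complement genes in green and 7 genes of the set in red; dotted lines mark 2-fold. C3 and C5ar1 lie at the upper left and Serping1 at the lower left; both axes share the fresh-medium array.

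Of 44 further complement genes, 34 were measured, 6 of them at 0 on every array. In myoblast medium 0 of 34 were at least 2-fold higher and 2 lower than in fresh medium, beside 1.35% and 0.844% of all genes. In fibroblast medium 4 were higher and 1 lower, beside 4.26% and 2.6%. Against myoblast medium 5 were higher and 0 lower, beside 3.94% and 2.12%. The medians were -0.01, 0.00 and 0.04.

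Among recognition molecules, C1qa, 1 of the 3 chain genes of C1q, was at 0 in fresh, -0.46 in myoblast and 1.69 in fibroblast medium. C1qc was at 0, -0.20 and 0.85, and C1qb at 0, -0.16 and 0.54, so all C1q chain genes had the order seen for C1r and C3. The 0.54 of C1qb lies inside the range of the control transcripts in fibroblast against fresh medium, -0.68 to 0.59. Between the conditioned media C1qb differed by 0.70 and C1qc by 1.06, beside a largest size of 1.02 among the controls. The collectin genes Colec11 and Colec12 were highest in fresh medium. Colec11 was at 0.76, -0.31 and 0.00 in fresh, myoblast and fibroblast medium, and Colec12, a scavenger receptor, at 0.81, -0.77 and 0.00. They were below fresh medium by 2-fold or more in myoblast medium, at -1.07 and -1.58.

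Among the later components, C6, part of the pore that complement builds in membranes, was at 0 in fresh, -0.39 in myoblast and 1.06 in fibroblast medium. The other 5 genes, C5, C8a, C8b, C8g and C9, differed by at most 0.14 in size between any 2 arrays. C5 and C8g were blank on all arrays, and C8a, C8b and C9 had 1 value each, so their small differences rest on blanks read as 0. None of the 11 measured regulators reached 2-fold in any comparison. Of these, Cfi, C4bpb and Cpn1 were blank on all arrays, and Cfp and Vtn had 1 value each. The regulators included Cd46, at 0.05 in fibroblast against fresh medium. Cr1l, which like Cd55 protects the cell's own membrane, was at 0.15. Cd59b, whose product blocks the membrane pore, was at 0.14 in that comparison. Clu, the gene of clusterin, was at 0.45 in myoblast against fresh medium.

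Among receptors, the integrin subunits that form complement receptors on phagocytes were highest in fibroblast medium. Itgb2, the shared beta chain, was at 0 in fresh, -0.34 in myoblast and 2.12 in fibroblast medium. Itgam was at 0, -0.05 and 1.56, and the C3a receptor gene C3ar1 at -0.09, 0.00 and 0.53. Itgax was at 0.94 in fibroblast medium, its only value, and its blanks on the other arrays were read as 0. Cd93, a lectin-like receptor of endothelial and myeloid cells, had another order, at 0.76 in fresh, 0.00 in myoblast and -0.85 in fibroblast medium.

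One probe set annotated to both C4a and C4b, the near-identical C4 genes, was at 0.64 in fresh, 0.00 in myoblast and -1.26 in fibroblast medium. Its difference of -1.90 between fibroblast and fresh medium (3.72-fold) ran opposite to that of C3. The probe set cannot be assigned to either copy. Another 2 probe sets were annotated to both C7, a component of the membrane pore, and the tubulin gene Tubb4b. They differed by -1.84 and -1.16 between fibroblast and fresh medium, and by -0.53 and -0.47 between myoblast and fresh medium, and cannot be assigned to C7. All of these are outside the counts above.

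**Figure D3:**
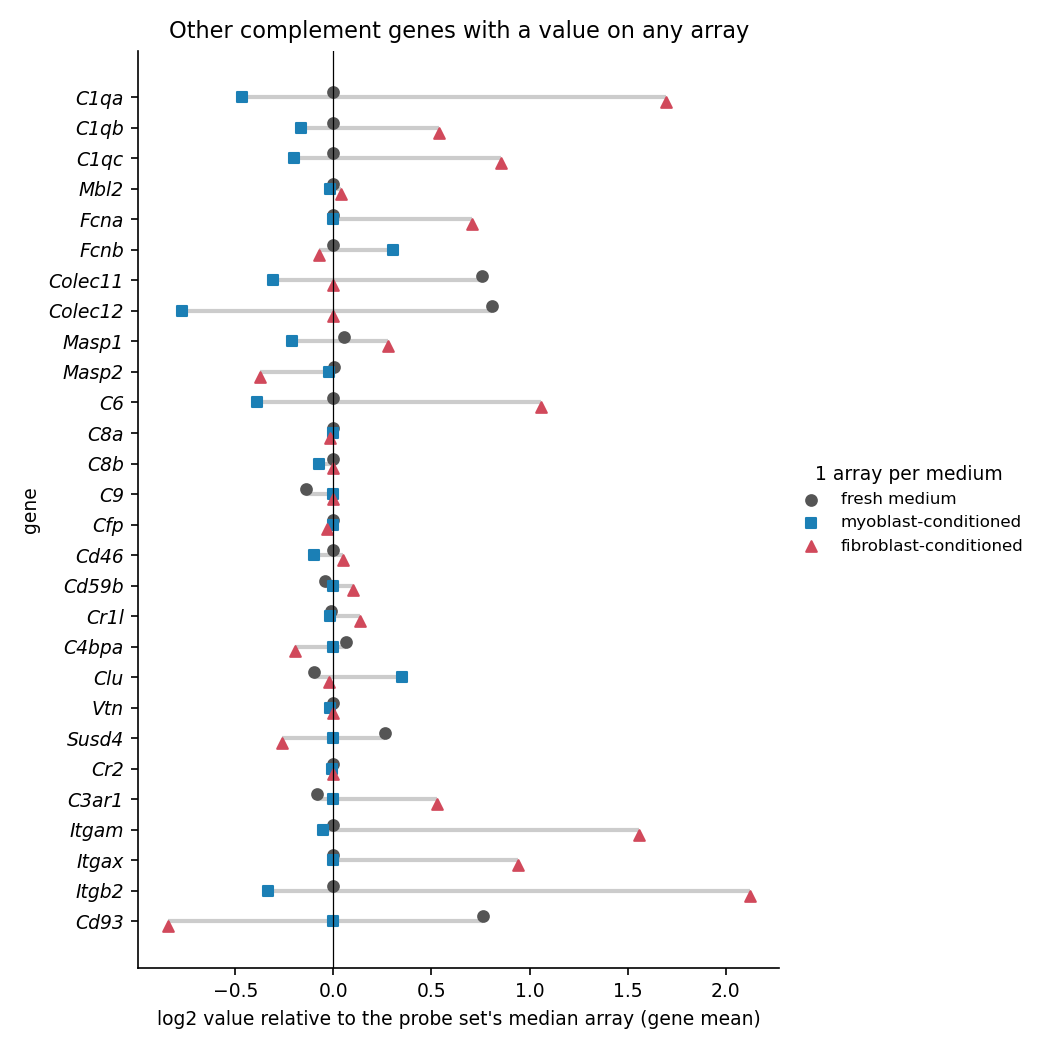
Log2 value on each array, relative to the probe set's median array, for the 28 other complement genes that had a value; circles are fresh medium, squares myoblast-conditioned and triangles fibroblast-conditioned medium. Itgb2, C1qa, Itgam and C6 stand out to the right in fibroblast medium, and Cd93, Colec11 and Colec12 are highest in fresh medium.

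Macrophage markers were higher in fibroblast medium, as C3 and C5ar1 were. Of 16 measured markers that are not complement genes, 13 were at least 2-fold higher in fibroblast than in fresh medium and none was lower. The shares of all genes were 4.26% and 2.6%. The median was 2.16 and the range from 0.08 to 5.41. In myoblast medium 13 were below and 2 above fresh medium, 1 at least 2-fold higher and 0 lower, beside 1.35% and 0.844%. The median there was -0.46 and the lowest difference -0.94, against -1.18 for C3. The mean value of the 16 markers was -0.07 in fresh, -0.44 in myoblast and 2.41 in fibroblast medium. The same order held for C3, C5ar1, C1qa and Itgb2. No macrophage marker was at 0 on every array. Of 4 measured neutrophil markers, 1 was blank on all arrays. None was at least 2-fold higher or lower than in fresh medium in either conditioned medium. The medians were 0.00 in myoblast and -0.01 in fibroblast medium. Camp differed from fresh medium by -0.23 and 0.58, and S100a9 by 0.03 and -0.23. The part of macrophages or neutrophils in the complement differences was not tested.

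Acute phase and NF-kB target genes were also higher in fibroblast medium. Of 22, 12 were at least 2-fold higher than in fresh medium, beside 4.26% of all genes, with a median of 1.18. In myoblast medium 9 were above and 11 below fresh medium, with a median of 0.00. There 1 was at least 2-fold higher and 3 lower, beside 1.35% and 0.844%. Il1b and Il6, cytokines known to induce C3, were at 4.94 and 4.29, and in myoblast medium at -0.13 and 0.00. For Il6 the fresh and the myoblast array both read 0. The chemokine genes Cxcl1 and Ccl2 were at 3.71 and 3.58 in fibroblast medium and at -1.18 and -1.21 in myoblast medium. Cebpb and Cebpd, which encode C/EBP factors, were at 1.79 and 1.65 in fibroblast medium. In myoblast medium they were at 1.04 and 0.42. Nfkb1 and Relb, which encode NF-kB subunits, were at 0.09 and 0.73 in fibroblast and at -0.34 and -0.19 in myoblast medium. Stat3, which encodes a STAT factor, was at 0.56 in fibroblast and -0.01 in myoblast medium. The part of these genes in the C3 values was not tested. Of 6 hepatocyte genes, Alb, Apoa1 and Ahsg were blank on all arrays, which does not show whether their RNA was present. Ttr was at 0.42 in myoblast and -0.48 in fibroblast medium against fresh medium, and Serpina1 at -0.24 in both.

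Endothelial markers had a median of -0.91 in myoblast and -2.60 in fibroblast medium against fresh medium, with 4 and 7 of 9 at least 2-fold lower. Fibroblast markers had medians of -0.17 and -0.12, with 3 and 2 of 12 at least 2-fold lower and 0 and 2 higher. Among all genes the shares lower were 0.844% and 2.6%, and those higher 1.35% and 4.26%. Serping1 was at -1.15 and -1.19 and Cd93 at -0.76 and -1.61 in these comparisons, below fresh medium in both, as the medians of both lists were. Both lists were mixed in fibroblast medium. There 4 fibroblast markers were above and 8 below fresh medium, from -2.07 to 3.88. For endothelial markers 1 was above and 8 below, from -5.65 to 0.83. The part of either cell type was not tested.

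**Figure D4:**
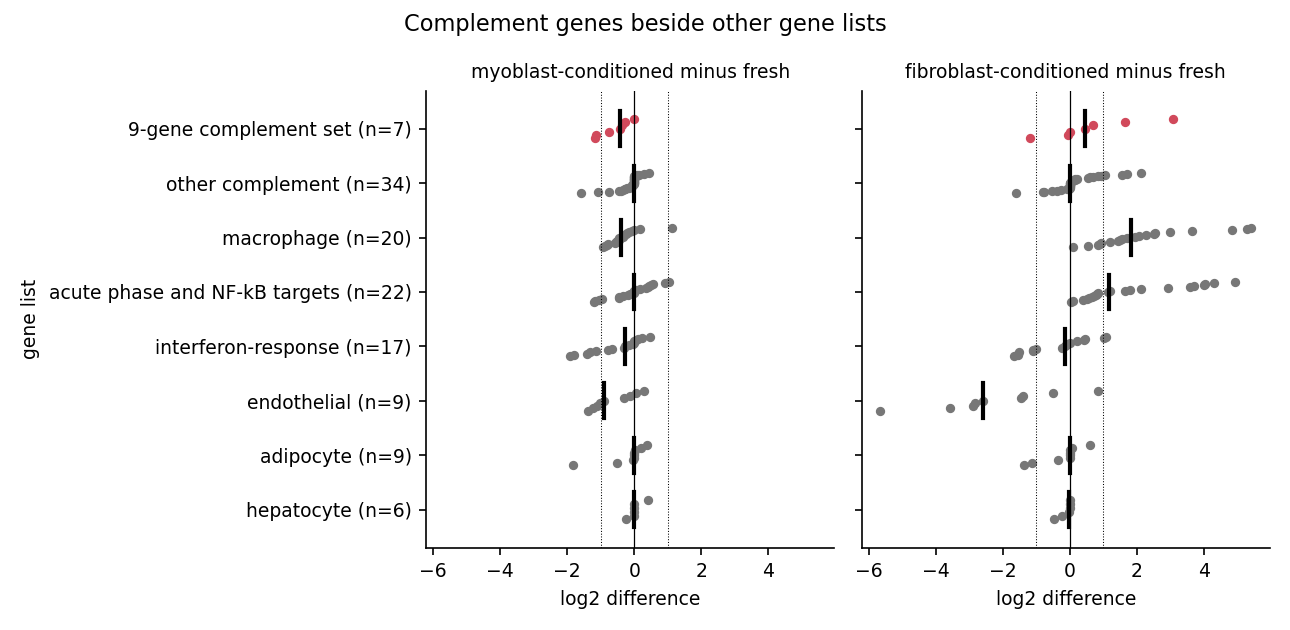
Log2 difference from fresh medium in myoblast-conditioned (left) and fibroblast-conditioned medium (right); each point is a gene, spread vertically by rank, black bars are list medians and dotted lines mark 2-fold. In fibroblast medium the medians are 0.45 for the 7 complement genes of the set, 1.82 for all 20 macrophage markers and 1.18 for acute phase and NF-kB targets.

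For the 4 genes that differed by 2-fold in any comparison, the genes with the most similar pair of differences from fresh medium were sought among 12591 genes with a value on any array. Likeness was the Euclidean distance over both differences, 2 numbers per gene that share the fresh array. Lcp1, which encodes an actin-bundling protein of leukocytes, was nearest to C3 at a distance of 0.11, followed by Evi2a at 0.24 and Rasl12 at 0.32. Tm4sf1 (0.17), Igsf6 (0.25) and Pcp4 (0.28) were nearest to C5ar1. Adh1c (0.13), Notch1 (0.15) and Btnl9 (0.16) were nearest to Serping1. Clip2 (0.01), Clstn1 (0.02) and S100a10 (0.03) were nearest to C1r, where many genes lie close together.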

How the data were processed

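Biotin-labelled RNA of 3 cultures was hybridised to 1 Affymetrix 3′ expression array each, per the labels' protocols. The submitters' processing notes name RMA without software or settings. The log2 values that the authors deposited hold at most 2 of 3 arrays per probe set: of 31099 probe sets, 17117 had 2 values, all of opposite sign, 8002 had 1 and 5980 had none. Blanks were read as 0, the median array, also in probe sets with 1 value or none, where the reason for the further blanks is unknown. Levels over background are unknown.

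Probe sets were named through the platform annotation (20832 with 1 gene, 436 with several), with symbols updated by Entrez ID through the RefSeq table of GRCr8. Probe sets with 1 symbol were averaged per gene, and 6 of the 7 genes have 1 probe set. Counts use a log2 difference of 1. With 1 array per medium no test was made. The genes and lists were chosen with earlier results of these data known. The text names all measured genes of the set, further complement genes past 2-fold in any comparison (others as examples), up to 4 genes per other list by the largest difference between any arrays, and the 3 nearest genes. Adipoq, Alb, Apoa1, Ahsg, Cebpb, Cebpd, Nfkb1, Relb and Stat3 were named for what they mark or encode, after values were seen. Counting was tested on simulated data. Alternatives were other probe set summaries, thresholds and centrings. Python 3.11.15, pandas 2.3.3, NumPy 2.4.6 and Matplotlib 3.10.9 were used.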

Additional observations from a re-analysis of the deposited data

How the results depend on the processing

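The 6 genes with a nonzero value kept the same differences under 5 settings. Each has 1 probe set, so the median and the widest-range probe set changed nothing, and none of these probe sets is marked as cross-hybridising. Each holds 2 values, so requiring values on 2 arrays changed nothing either, and the medians used to centre the arrays were 0. Cd55 could not be computed when values on 2 arrays were required. Centring on the added control transcripts shifted all genes by -0.18 in myoblast against fresh medium. C3 was then at -1.36, Serping1 at -1.32, C5ar1 at -0.94, C1r at -0.59, C1s at -0.54, Cfd at -0.44 and Cd55 at -0.18. The same centring moved Serping1 from -0.04 to 0.14 between fibroblast and myoblast medium and left fibroblast against fresh medium unchanged. It subtracts the median of each array's control values, which need not match the median of their differences, 0.29 for myoblast against fresh medium. At 3-fold, 0 genes in place of 2 were lower in myoblast and 0 in place of 1 in fibroblast against fresh medium. The shares of all genes there were 0.148% and 0.992%. The 2 genes higher in fibroblast than in fresh medium stayed so at 3-fold, beside 1.84%. At 1.5-fold, 3 were lower in myoblast and 3 higher in fibroblast medium, each against fresh medium, beside 2.86% and 9.09%. Between the conditioned media 4 were higher at 1.5-fold and 2 at 3-fold, beside 8.34% and 1.79%. The spread used to judge a move was the SD of the control transcripts' differences, 0.16 for myoblast against fresh medium. The number of arrays limits the precision. No paired analysis was possible because each medium has 1 array.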
